A study of Mus musculus with 8 samples.

Results

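The zinc finger and BTB genes measured here are genes of the deposited table whose mouse symbol starts with Zfp, Zbtb, Zscan, Zkscan, Zfhx, Zmym or Zic followed by a digit, together with Zfx, with Zfp608 left out. There were 80 such genes among the 3160 of the table. The rule reads the symbol and no measured value, but it was set with earlier results of these data known, and the table itself had been filtered on input counts and replicate spread. They comprised 61 Zfp, 11 Zbtb, 3 Zmym, 2 Zscan, 1 Zkscan and 1 Zic gene together with Zfx, and no Zfhx gene. RefSeq lists 482 mouse protein-coding genes whose symbols match the same rule, so these 80 are part of a much larger group. Absence of the others from the table is not shown to mean low abundance or poor agreement of replicates.

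RNA was sequenced in E14Tg2A, a line of mouse embryonic stem (ES) cells, grown on gelatin in serum with leukemia inhibitory factor (ES, 0 days in vitro), and in epiblast-like aggregates (ELA) made from the same line, which floated for 2 days without serum and factor in a defined minimal medium with N2 and B27 supplements. Cells of both stages were treated with cycloheximide, which stalls ribosomes, and lysed. Part of each lysate gave total RNA (input), and the rest was bound by an antibody against the endogenous large-subunit protein Rpl10a, which recovers RNA that sits on ribosomes (Rpl10a-IP). Each stage gave 2 input and 2 Rpl10a-IP libraries, 8 in all, from 1 cell line. Nothing in the labels ties replicates to separate cultures, so p-values measure the spread between these libraries, which may be technical.

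Zinc finger proteins of the Cys2-His2 (C2H2) kind read DNA through small modules held together by a zinc ion, and chains of such fingers read longer sites. Many of them carry a KRAB box that calls in Trim28 and the histone methyltransferase Setdb1 to silence transposable elements in ES cells and the early embryo. BTB proteins pair through their BTB domain and recruit corepressors or the ubiquitin ligase scaffold Cul3, while Zmym proteins carry MYM-type fingers and are found with chromatin complexes that hold the demethylase LSD1.

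The genes of this group were read at very different depths. Their median was 483.5 and 374 reads per gene in the ES input libraries, 1695.5 and 1653.5 in ES Rpl10a-IP and 2559 and 1713.5 in ELA Rpl10a-IP, but 19 and 55 in ELA input. Over all genes of the table the medians were higher, at 806 and 591 in ES input and 26 and 66 in ELA input. In the ELA inputs the lowest gene of the group was covered by 3 and 10 reads, so every comparison with ELA input was limited by counting error. The fits below used 1 variance per gene over all their libraries, without weights for depth. Standard errors and p-values against ELA input may therefore be too small. ELA input replicate 1, which the study set aside for poor quality, was used only where an ELA input group of 2 libraries was needed. The group took 1.21% to 1.28% of the table's reads in the 4 ES libraries, 1.57% and 1.67% in ELA input, and 1.73% and 1.76% in ELA Rpl10a-IP. The 4 ELA libraries were all above the 4 ES libraries. As a check of the stages, the summed normalized count of the 7 measured markers of naive or general pluripotency of 12 listed was 25007 to 26214 in the ES libraries, 4495 and 5030 in ELA input, and 2798 and 2866 in ELA Rpl10a-IP. The only measured marker of the primed epiblast of 7 listed, Dnmt3b, had 2862 to 3200 in ES and 18169 to 26387 in ELA. None of the 4 listed trophectoderm markers was in the table. The neural markers Nes and Map2 summed to 516 to 662 in ES and 1608 to 3344 in ELA, the endoderm marker Lama1 to 531 to 612 and 326 to 665, and the mesenchymal marker Vim to 1274 to 1738 and 453 to 979. The part of these cell states in the changes below was not tested.

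The reference promoters of the group were rich in CG dinucleotides, which mark promoters of widely used genes. The median was 23 per 300 bases in the 65 genes with a RefSeq promoter entry, against 8 in 27025 mouse genes. Those are all genes with an entry, expressed or not, while the 65 had passed the filter on input counts. Promoters of the other genes of the table were not counted. This excess and those of the letters below are therefore not shown to be particular to the group. Letters known from the binding sites of measured factors of the group itself were searched on both strands. CCCTCCCC, a G-rich site of Zfp281 and Zfp148, was in 14 of the 65 promoters (21.5%) and in 12% of all genes. AGGCCTNG, from the site of Zfx, was in 8 (12.3%, against 6.15%), and ACTACAANT, from the site of Zfp143, was in 2 (3.08%, against 1.74%). 3 promoters that hold such letters are printed 5′ to 3′ on the strand of the gene. Their genes were called in the change in ribosome enrichment described below: Zfp318 and Zmym4 gained it and Zfp219 lost it. Other genes, such as Zmym6, Zfp37 and Zfp191, lay nearer its ends than Zmym4 or Zfp219. Capitals mark the Zfp281 and Zfp148 letters in Zfp318, the Zfx letters in Zmym4, and in Zfp219 first the Zfx letters, which overlap on both strands, and then the Zfp143 letters. The sequences come from RefSeq (GRCm38.p6): chr17:46383516-46383815 on the plus strand, chr4:126968178-126968477 on the minus strand and chr14:52019664-52019963 on the minus strand. The windows of Zmym4 and Zfp219 lie within the spans of their genes, so they are not those of the outermost start. A match describes the letters of these windows and no binding.
Zfp318: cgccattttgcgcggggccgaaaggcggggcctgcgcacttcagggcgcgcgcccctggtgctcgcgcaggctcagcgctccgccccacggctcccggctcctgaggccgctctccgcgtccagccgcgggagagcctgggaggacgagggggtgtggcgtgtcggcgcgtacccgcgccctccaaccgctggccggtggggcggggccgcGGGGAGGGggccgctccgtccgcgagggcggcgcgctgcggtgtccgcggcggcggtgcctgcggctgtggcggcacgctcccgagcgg
Zmym4: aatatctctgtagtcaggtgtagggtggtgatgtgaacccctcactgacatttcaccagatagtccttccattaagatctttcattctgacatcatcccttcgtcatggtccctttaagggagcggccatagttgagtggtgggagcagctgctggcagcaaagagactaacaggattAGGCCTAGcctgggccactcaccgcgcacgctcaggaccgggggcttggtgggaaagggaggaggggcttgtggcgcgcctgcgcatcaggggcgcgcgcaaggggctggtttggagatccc
Zfp219: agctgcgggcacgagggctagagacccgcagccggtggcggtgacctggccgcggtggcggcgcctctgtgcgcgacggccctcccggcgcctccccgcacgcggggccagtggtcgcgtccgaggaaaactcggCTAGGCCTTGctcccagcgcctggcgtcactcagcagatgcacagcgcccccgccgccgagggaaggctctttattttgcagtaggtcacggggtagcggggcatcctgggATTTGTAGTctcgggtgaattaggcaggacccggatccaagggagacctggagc

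Total RNA was compared between the inputs of ELA and ES to see which of these genes change in amount when ES cells leave the naive state. More of them rose than fell. In total RNA, 42 of the 80 genes rose in ELA, 15 fell and 23 were not called by limma at an adjusted p of 0.05. Over all 3160 genes 70.2% were called, 34.5% higher and 35.8% lower. The median log2 change was 0.37 over the group and -0.02 over all genes. Of the larger changes, 16 of the 80 genes rose beyond 2-fold (20.0%, against 10.5% of all genes) and 4 fell (5.0%, against 7.88%). In bulk RNA, fewer cells that express a gene and less of its RNA per cell cannot be told apart.

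Ribosome-bound RNA was compared between the Rpl10a-IP libraries in the same way. It rose in 45 genes, fell in 19 and was not called in 16. The background was 83.4% called, with 41.6% higher and 41.9% lower. The median log2 change was 0.53 in the group and -0.01 over all genes. Beyond 2-fold, 22 genes of the group rose (27.5%) and 2 fell (2.50%), while the shares over all genes were 15.4% and 14.1%. The spread of the changes was smaller than over the whole table, with an SD of 0.856 against 1.04.

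The authors' filter bears on this lean to ELA, since it kept a gene whose mean input count reached 50 in either stage. A gene that passed in ELA only had to be higher there. There were 13 such genes and 4 that passed in ES only, against 216 and 216 over all genes. Among the 13, total RNA rose in 11 and fell in 0, and ribosome-bound RNA rose in 12 and fell in 0. Among the 63 genes at 50 or more in both stages, total RNA rose in 31 and fell in 11, and ribosome-bound RNA rose in 32 and fell in 16. Their median log2 changes were 0.25 and 0.19. Of the 2728 genes of the table that passed in both stages, 32.3% rose and 34.8% fell in total RNA, and 40.1% rose and 42.4% fell in ribosome-bound RNA. Beyond 2-fold in ribosome-bound RNA, 14 of the 63 rose (22.2%, against 12.6%) and 0 fell (against 13%). At an unadjusted limma p under 0.05, without regard to size, 48 of the 63 and 2262 of the 2728 differed in either direction.

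**Figure D1:**
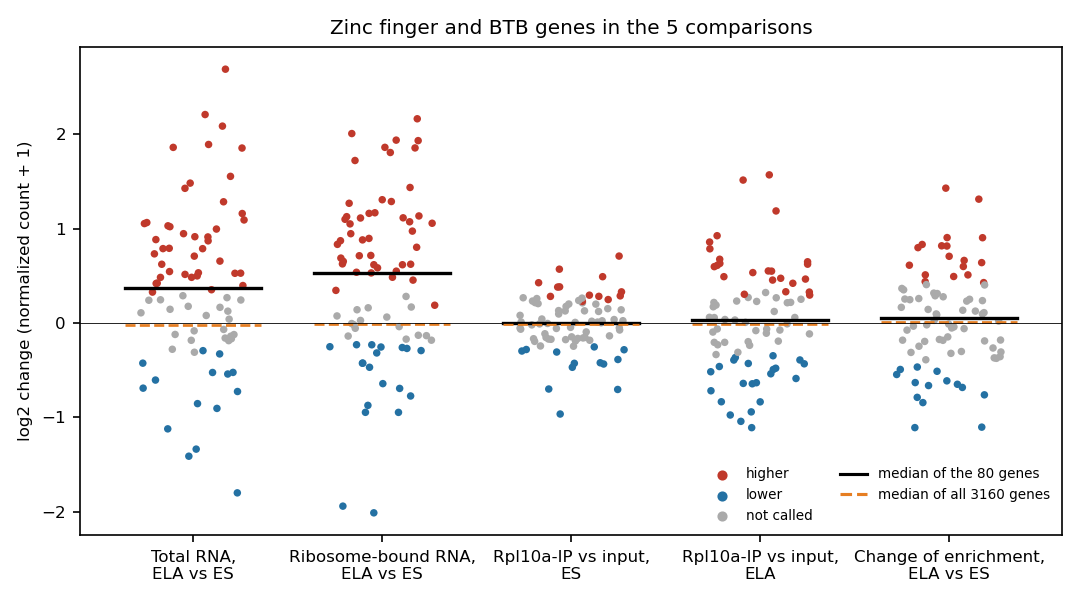
Log2 change of each of the 80 zinc finger and BTB genes (points) in the 5 comparisons, on the scale of the normalized count plus 1, colored by the limma call, with the median of the group (black line) and of all 3160 genes (orange dashes). The median of the group lies at 0.37 in total RNA and 0.53 in ribosome-bound RNA, and near 0 in the other comparisons.

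The genes with the largest increase included a transcriptional repressor known from the brain. Zbtb18, a BTB repressor needed for brain development, had 219 and 179 normalized counts in ES input, 680 and 763 in ELA input, 176 and 155 in ES Rpl10a-IP, and 738 and 734 in ELA Rpl10a-IP. Every ELA library lay above every ES library. Its total RNA rose by 1.86 ± 0.13 (log2 ± SE, limma adjusted p = 1.29e-14) and its ribosome-bound RNA by 2.16 ± 0.11 (2.81e-42), the largest rise in ribosome-bound RNA of the group. Zic5, a Zic factor expressed in the neural plate, had 133 and 142 in ES input and 381 and 360 in ELA input, and 130 and 129 in ES Rpl10a-IP against 273 and 291 in ELA Rpl10a-IP. Its libraries did not overlap between the stages, and it rose by 1.43 ± 0.14 in total RNA and 1.13 ± 0.13 in ribosome-bound RNA. Both genes passed the filter in ELA only.

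Zfp423, a cofactor of BMP signaling and neural development, went the other way. It had 375 and 285 normalized counts in ES input and 81.6 and 106 in ELA input, the latter from 3 and 10 reads, and 302 and 272 in ES Rpl10a-IP against 73.0 and 74.0 in ELA Rpl10a-IP. The stages did not overlap in either fraction, and ribosome-bound RNA fell by 1.94 ± 0.13 on the log2 scale (limma adjusted p = 7.16e-30). It passed the filter in ES only. Zfp704, the fourth measured gene of 16 listed for neural and other lineages, was at 807 to 919 in ES input and 721 to 816 in ELA input and was not called in any of the 5 comparisons. With the replicate number as a block and each library corrected for transcript length and GC content it was called in 4 of them, with log2 changes of -0.93 in total RNA (limma adjusted p = 1.37e-17), -1.59 in ribosome-bound RNA (2.34e-24), -0.50 in ELA enrichment (5.66e-06) and -0.66 in the change of enrichment (4.85e-05). Its transcript of 13843 nt is the longest of the group, against a median of 3692 nt over the table. The correction may be poorly supported at such a length. Zfp704 was also called with the deposited size factors in total RNA (-0.27, 0.0469) and ribosome-bound RNA (-0.26, 0.014). Without ELA input replicate 1 its ELA enrichment was 0.32, opposite in sign to the corrected value. Without ES input replicate 2 its ES enrichment was 0.30, against 0.20 in the main fit. Over these 4 genes total RNA rose in 2 and fell in 1, beside 34.5% higher and 35.8% lower over all genes. The called genes, Zbtb18, Zic5 and Zfp423, each passed the filter in 1 stage only, which partly fixes their directions.

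The list for pluripotency and the early embryo held 17 genes, of which 6 were in the table. They changed in both directions. In total RNA 3 rose and 2 fell, and in ribosome-bound RNA 2 rose and 1 fell. Over all genes 34.5% rose and 35.8% fell in total RNA, and 41.6% and 41.9% in ribosome-bound RNA. Zfp217, a cofactor found with CoREST, rose in both. It went from 685 and 663 normalized counts in ES input to 1577 and 1187 in ELA input, and from 703 and 760 to 1683 and 1576 in Rpl10a-IP, with no overlap between the stages. Its ribosome-bound RNA rose by 1.17 ± 0.09 (limma adjusted p = 2.85e-24). Zfp207, a microtubule-binding factor also linked to splicing in ES cells, fell. It had 3428 and 3154 counts in ES input and 2610 and 2629 in ELA input, and 3015 and 3580 in ES Rpl10a-IP against 1704 and 1673 in ELA Rpl10a-IP. The distance between the stages was wider in the ribosome-bound RNA, which fell by 0.95 ± 0.09 on the log2 scale (1.19e-19), than in total RNA, which fell by 0.33 ± 0.11. The call in total RNA was lost without ES input replicate 1 (adjusted p = 0.0954) and in a fit with a replicate block and each library corrected for transcript length and GC content (-0.16, 0.111).

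Zscan10, a SCAN factor of the ES cell transcription network, fell by 0.54 ± 0.13 in total RNA, from 926 and 752 normalized counts to 517 and 636. Its ribosome-bound RNA lay at 503 and 513 in ES and at 517 and 478 in ELA, and these groups overlapped. Zfx, an X-linked activator needed for ES cell self-renewal, likewise was called in total RNA, where it rose by 0.53 ± 0.12, and not in ribosome-bound RNA. With the block and the correction for length and GC it was called in ribosome-bound RNA (-0.64, adjusted p = 4.58e-10) and not in total RNA (-0.012, 0.922). It had 874 and 1038 counts in ES input, 1251 and 1505 in ELA input, 1078 and 1058 in ES Rpl10a-IP, and 1088 and 1068 in ELA Rpl10a-IP. Zfp281, which binds G-rich promoters and limits Nanog, had 1591 and 1695 counts in ES input and 2066 and 2343 in ELA input, a rise of 0.42 ± 0.11 that was not called with the block and the correction for length and GC (0.16, adjusted p = 0.121). Its rise of 0.19 ± 0.09 in ribosome-bound RNA (limma adjusted p = 0.046) was lost without ES Rpl10a-IP replicate 1 (0.0674) or 2 (0.191), without ELA Rpl10a-IP replicate 2 (0.261), with the deposited size factors (0.551), with total reads as scaling (0.130) and with 8 libraries (0.135), and turned to -0.068 (0.397) with the block and the correction. Zfp143, an activator of promoters of snRNA and housekeeping genes, was not called in total RNA (-0.28 ± 0.14) or in ribosome-bound RNA (0.14 ± 0.10). Its change in total RNA was called with the replicate number as a block (adjusted p = 0.0285), with the deposited size factors (-0.37, 0.0144) and without ELA input replicate 2 (-0.54, 3.55e-05), and that in ribosome-bound RNA with the block and the correction for length and GC (0.39, 0.000168).

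Several less studied C2H2 genes rose more than these. Zfp937 had 109 and 104 normalized counts in ES input and 625 and 763 in ELA input, and rose by 2.69 ± 0.14, the largest rise in total RNA of the group (limma adjusted p = 5.69e-18). Zfp37 went from 150 and 118 to 598 and 636 and rose by 2.21 ± 0.15. Zfp811 went from 57.9 and 66.8 to 245 and 223 and rose by 1.89 ± 0.16. These 3 were low in ES and read at 9 to 72 reads in ELA input, and Zfp37 and Zfp811 passed the filter in ELA only, as did Zfp937. In ribosome-bound RNA Zfp811 rose by 2.01 ± 0.16, Zfp236 by 1.94 ± 0.11 and Zfp518a by 1.93 ± 0.09. Zfp518a and Zfp236 passed the filter in both stages. Zfp518a had 980 and 978 counts in ES Rpl10a-IP and 3508 and 3916 in ELA Rpl10a-IP.

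Fewer genes fell. Zfp459 had 376 and 386 normalized counts in ES Rpl10a-IP and 86.3 and 100 in ELA Rpl10a-IP, and its ribosome-bound RNA fell by 2.01 ± 0.12 on the log2 scale, the largest fall of the group. Its span overlaps that of Zfp874a, so reads of the pair may be shared. Zfp459 and Zfp473 passed the filter in ES only, so the direction of their changes is partly fixed by it. Zfp473, which is known from histone pre-mRNA processing, fell by 1.41 ± 0.13 in total RNA, from 550 and 538 counts to 218 and 191. Zfp568, a KRAB repressor needed for embryonic morphogenesis, was one of the most abundant genes of the group. It had 3880 and 4206 counts in ES input and 1631 and 2109 in ELA input, and fell by 1.12 ± 0.11 in total RNA and 0.87 ± 0.09 in ribosome-bound RNA. Zfp277, with 532 and 578 counts in ES Rpl10a-IP and 289 and 281 in ELA Rpl10a-IP, fell by 0.95 ± 0.11.

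Total and ribosome-bound RNA were called in the same direction in most genes, in the group as in the table. Of the 80 genes, 34 rose in both (42.5%, against 24.9% of all genes), 11 fell in both (13.8%, against 26.1%) and 7 were called in neither (8.75%, against 6.71%). Genes that passed the filter in ELA only are among the 34. There were 10 that rose only in ribosome-bound RNA, 6 that fell only there, 6 that rose only in total RNA and 3 that fell only there, with shares over all genes of 12.1%, 11.0%, 4.84% and 5.03%. Such a split by calls is no test of a difference, which is given by the change in ribosome enrichment below. 3 genes were called in opposite directions, 1.25% and 2.50% by direction, against 4.59% and 4.72% of all genes. Zmym6 fell in total RNA and rose on ribosomes, while Zfp191 (Zfp24 in RefSeq) and Zfp219 rose in total RNA and fell on ribosomes.

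**Figure D2:**
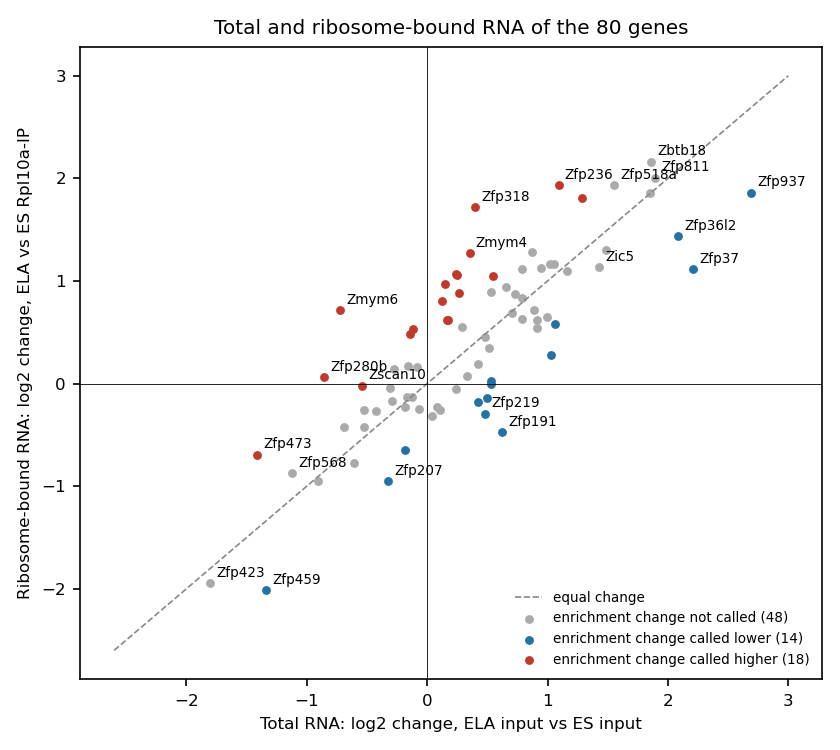
Log2 change from ES to ELA in total RNA (horizontal axis) and in ribosome-bound RNA (vertical axis) for the 80 genes, colored by the call of the change in ribosome enrichment, with a dashed line of equal change. Of the 80 points, 34 were called higher on both axes and 11 lower on both, and Zmym6, Zfp191 and Zfp219 lie in the quadrants of opposite change.

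Ribosome enrichment is the Rpl10a-IP count of a gene over its input count, set against the rest of the genes in those libraries. In ES cells it was modest in the whole table, with an SD of the log2 enrichment of 0.288 in the group and 0.296 over all genes. 13 genes were enriched and 13 depleted, 32.5% in all, and 39.2% of all genes were called. This even split did not hold in all settings, with 5 enriched and 8 depleted when ELA input replicate 1 was added to the fit. The median log2 enrichment was 0.00 in the group and -0.01 over all genes, and no gene of the group passed 2-fold in either direction. Over all genes 0 passed it upward and 0.158% downward. The number of calls depended on single libraries, in the group and over all genes. It was 13 without ES input replicate 1 (16.2%, against 26.6% of all genes), 15 without ES Rpl10a-IP replicate 1 (18.8%, against 23.2%) or 2 (18.8%, against 24.8%) and 13 when ELA input replicate 1 was added to the fit (16.2%, against 24.1%).

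The largest depletion in ES was that of Zbtb37, a BTB protein with no well-known role. It had 248 and 227 normalized counts in ES input and 136 and 106 in ES Rpl10a-IP, and its enrichment was -0.97 ± 0.13 (log2, limma adjusted p = 4.62e-10). Zscan10 followed with -0.70 ± 0.10, from the input and Rpl10a-IP counts given above, and Zfp609, a partner of the cohesin loader Nipbl, with -0.70 ± 0.10 (815 and 812 counts against 513 and 482). The input and Rpl10a-IP libraries of these 3 genes did not overlap. At the other end stood Zfp808, with 245 and 243 counts in ES input, 441 and 356 in ES Rpl10a-IP and an enrichment of 0.71 ± 0.11. Zfp518a reached 0.57 ± 0.09 and Zmym1 0.49 ± 0.09, while Zfp955a (0.43 ± 0.11) and Zbtb1 (0.38 ± 0.10) were no longer called without ES input replicate 1 (adjusted p = 0.0607 and 0.0716), nor was Zbtb1 with 8 libraries (0.0555). Zbtb1 is a BTB repressor needed for lymphocyte development. The span of Zbtb37 overlaps the RNA gene Gas5, that of Zmym1 the protein-coding gene Sfpq and that of Zbtb1 the protein-coding gene Zbtb25. In all, 33 of the 80 genes overlap another RefSeq gene and 14 a protein-coding one, and with the strand setting of the counting not given some of their reads may belong to the partner.

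In ELA 24 genes were enriched and 22 depleted, 57.5% of the group against a background of 74.0%. With a replicate block and each library corrected for transcript length and GC content the shares were closer, 70.5% of 78 genes against 74.5% of 3119. With total reads as scaling the split was 20 to 30, and this scaling moved the median of all genes from -0.01 to -0.12. 3 genes were enriched beyond 2-fold (3.75%, against 9.43% of all genes) and 2 depleted beyond 2-fold (2.50%, against 11.9%). The SD of the enrichment was 0.552 in the group and 0.812 over all genes. Zmym6 (1.57 ± 0.14), Zfp318 (1.51 ± 0.12) and Zmym4 (1.19 ± 0.11) were the enriched genes, and Zfp37 (-1.11 ± 0.15) and Zfp219 (-1.04 ± 0.14) the depleted ones. Zfp191 stood just short of 2-fold at -0.98 ± 0.12, followed by Zfp2 (-0.94 ± 0.15), Zfp821 (-0.84 ± 0.16) and Zfp326 (-0.84 ± 0.13).

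The change in ribosome enrichment, the difference between the ELA and the ES enrichment in 1 fit of 8 libraries, was called in 32 of the 80 genes (40.0%), while 56.2% of all genes were called. It rose in 18 genes (22.5%, against 28.4%) and fell in 14 (17.5%, against 27.7%). The median was 0.06 in the group and 0.01 over all genes. Beyond 2-fold 2 genes rose and 2 fell, 2.50% each way, and the shares over all genes were 6.33% and 9.05%. A share of 40.0% lies below the background, and the SD of 0.519 lies below the 0.697 of all genes. The group was also read less deeply than the table as a whole, which can lower the number of calls. The part of this was not tested. With a replicate block and each library corrected for transcript length and GC content the shares were closer, 47.4% of 78 genes against 53.9% of 3119.

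Zmym6 had the largest rise of the group. Of 6 MYM-finger genes listed, 3 were in the table. They lie next to each other on chromosome 4 (GRCm38.p6), Zmym4 at chr4:126861819-126969377, Zmym1 at chr4:127047094-127061176 and Zmym6 at chr4:127077383-127124374. Zmym6 had 333 and 283 normalized counts in ES input and 379 and 303 in ES Rpl10a-IP. In ELA it had 190 and 180 in input, from 7 and 17 reads, and 592 and 514 in Rpl10a-IP. The SEs given next may understate the counting error of so few reads. The 2 fractions overlapped in ES and lay about 3-fold apart in ELA. Its enrichment rose by 1.43 ± 0.19 (limma adjusted p = 2.01e-07), with total RNA down by 0.73 ± 0.14 on the log2 scale and ribosome-bound RNA up by 0.72 ± 0.11. It passed the filter in ES only, which favors genes with a low ELA input, and a low ELA input lowers the change in total RNA and raises that in enrichment. Zmym4 had 1169 and 1336 counts in ES input, 1573 and 1472 in ES Rpl10a-IP, 1550 and 1643 in ELA input, and 3553 and 3717 in ELA Rpl10a-IP. The ELA Rpl10a-IP libraries stood far above the other 6, which lay between 1169 and 1643. Its enrichment rose by 0.90 ± 0.15 (7.35e-06). Its rise in total RNA (0.35 ± 0.11) was lost without ES input replicate 1 (0.0991) and with the deposited size factors (0.0503), and its value fell to 0.0013 (0.992) in a fit with a replicate block and each library corrected for transcript length and GC content. Zmym1 was enriched in both stages, by 0.49 ± 0.09 in ES and 0.62 ± 0.11 in ELA, and its change of 0.14 ± 0.16 was not called.

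Zfp318, which acts on the processing of immunoglobulin transcripts in B cells and whose promoter is printed above, had 693 and 691 normalized counts in ES input, 838 and 757 in ES Rpl10a-IP, 979 and 848 in ELA input, and 2446 and 2772 in ELA Rpl10a-IP. As for Zmym4, the ELA Rpl10a-IP libraries alone stood apart. The enrichment rose by 1.31 ± 0.16 (limma adjusted p = 3.84e-08). Zfp280b fell in total RNA, from 810 and 864 counts to 517 and 413, while its ribosome-bound RNA lay at 701 and 663 in ES and 753 and 662 in ELA, with overlap. Its enrichment rose by 0.90 ± 0.17. It was 1 of 3 genes, with Zfp7 and Zfp866, that were depleted in ES and enriched in ELA. Zfp236, a protein with 30 finger matches, rose by 0.83 ± 0.19 in enrichment.

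Zfp37 and Zfp191 fell most. Zfp191, known from myelination, had 512 and 554 normalized counts in ES input, 550 and 617 in ES Rpl10a-IP, 870 and 774 in ELA input, and 407 and 427 in ELA Rpl10a-IP. In ES the fractions overlapped, and in ELA every input library was above every Rpl10a-IP library. Its enrichment fell by 1.10 ± 0.17 on the log2 scale (limma adjusted p = 1.66e-06). Zfp37 fell by 1.11 ± 0.21 (3.10e-05), with 131 and 134 counts in ES Rpl10a-IP and 253 and 322 in ELA Rpl10a-IP beside the larger rise in input given above. Zfp219, which partners Sox9 in cartilage, had 373 and 332 counts in ES input, 295 and 294 in ES Rpl10a-IP, 571 and 424 in ELA input, and 242 and 235 in ELA Rpl10a-IP. Its 2 highest libraries were those of ELA input and its 2 lowest those of ELA Rpl10a-IP, and its enrichment fell by 0.79 ± 0.19 (0.00084). The span of Zfp219 overlaps Arhgef40 and Tmem253, and no source gives the strand setting of the counting, so some of its reads may be theirs. Zfp937 fell by 0.84 ± 0.20 and Zfp2 by 0.76 ± 0.22. Zfp37, Zfp937 and Zfp2 passed the filter in ELA only, which favors a high ELA input and so a fall in enrichment. Of the 13 genes that passed in that way, enrichment fell in 3 and rose in 1.

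**Figure D3:**
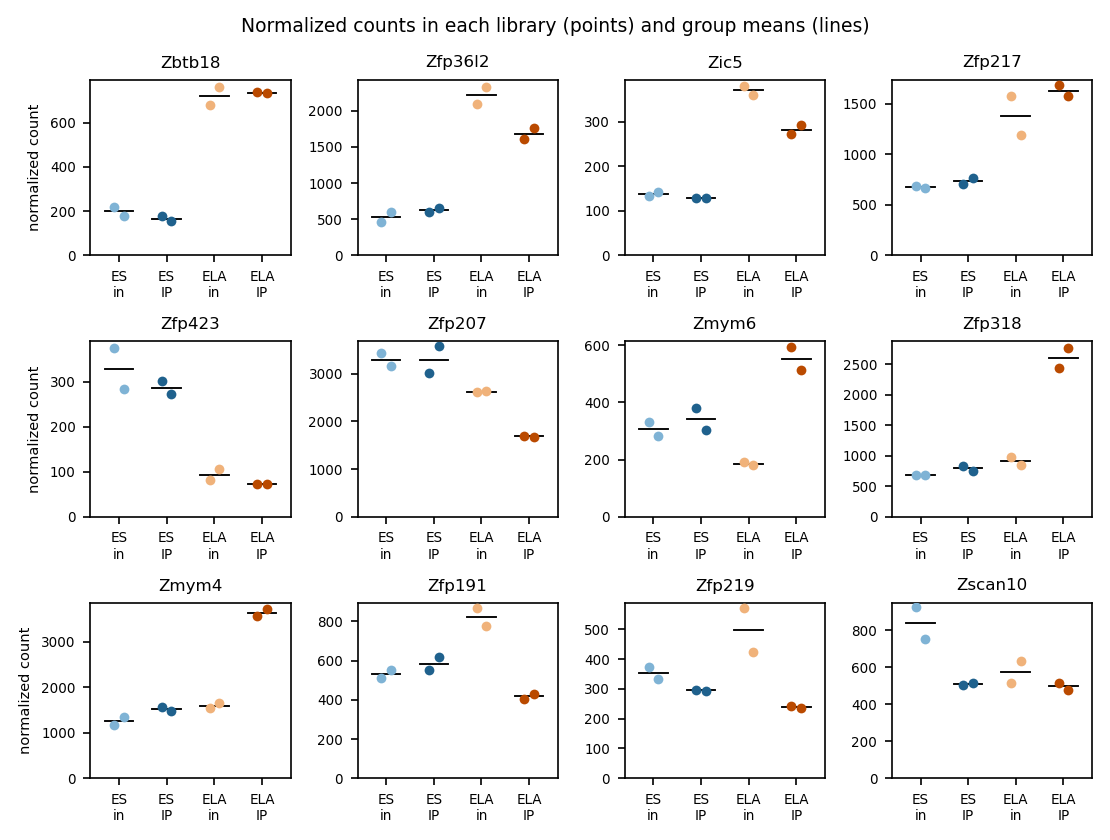
Normalized count (vertical axes, from 0) of 12 genes in each of the 8 libraries, with ES in pale and dark blue and ELA in pale and dark orange for input (in) and Rpl10a-IP (IP). Points are single libraries and black lines the means of 2, and the ELA Rpl10a-IP points of Zmym6, Zfp318 and Zmym4 lie far above their ELA input points while those of Zfp191 and Zfp219 lie below.

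Among the pluripotency genes the change in enrichment was called in 3 of 6, beside 56.2% of all genes. Without ELA input replicate 1 it was also called in Zfp281 (-0.33, limma adjusted p = 0.0341) and in Zfp217 (0.34, 0.0392), which stood at 0.13 with 8 libraries. Zfp207 fell by 0.63 ± 0.15 on the log2 scale (limma adjusted p = 0.000638), a call lost with the block and the correction for length and GC (-0.30, 0.0528). Zfx fell by 0.51 ± 0.17 (0.00891), a call lost without ES input replicate 1 (0.0906). Zscan10 rose by 0.51 ± 0.18 (0.0159), a call lost without ES input replicate 1 (0.145), ES Rpl10a-IP replicate 1 (0.0505) or ELA Rpl10a-IP replicate 1 (0.0756). Zfp143 stood at 0.41 ± 0.19 (0.0715) and was called without ELA input replicate 2 (0.000111), with the replicate number as a block (0.0292) and with the block and the correction for length and GC (0.62, 0.000425). Of the 4 neural and lineage genes limma called none in this comparison, with log2 changes from -0.31 to 0.29 and 0 with an unadjusted p under 0.05. With the block and the correction for length and GC, Zic5 (-0.56, adjusted p = 0.00796) and Zfp704 (-0.66) were called.

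Zinc finger proteins that act on RNA, ribosomes or ubiquitin rather than promoters were listed apart, and 4 of 12 were in the table. Zfp36l2, which binds AU-rich elements and speeds mRNA decay, rose most. It had 455 and 593 normalized counts in ES input, 599 and 657 in ES Rpl10a-IP, 2093 and 2332 in ELA input, and 1613 and 1757 in ELA Rpl10a-IP, so that all ELA libraries were above all ES libraries. Total RNA rose by 2.09 ± 0.12 (limma adjusted p = 7.35e-17) and ribosome-bound RNA by 1.44 ± 0.10 (1.06e-30). Its enrichment fell by 0.66 ± 0.17 on the log2 scale (0.00141). Zfp106, an RNA-binding protein of motor neurons and the most abundant of the 4, had 7944 and 8233 counts in ES input, 7721 and 7316 in ES Rpl10a-IP, 6498 and 8501 in ELA input, and 10365 and 11169 in ELA Rpl10a-IP. Only the ELA Rpl10a-IP libraries stood apart, and the enrichment rose by 0.64 ± 0.15 (0.000595). With the block and the correction for length and GC this call was lost (0.25, adjusted p = 0.0775), ribosome-bound RNA turned to -0.54 (5.47e-11) and total RNA stood at -0.79 (6.2e-18).

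Zfp598, the ubiquitin ligase that senses collided ribosomes, was at 237 and 249 normalized counts in ES input and 245 and 254 in ELA input, with a change of 0.04 ± 0.14 in total RNA. Its fall of 0.32 ± 0.12 in ribosome-bound RNA (limma adjusted p = 0.0147) was lost without ES Rpl10a-IP replicate 1 (0.0501) or 2 (0.148) or ELA Rpl10a-IP replicate 2 (0.169). Zfp326, a factor that couples splicing to elongation, was depleted from ribosomes in ELA (-0.84 ± 0.13) and in ES (-0.44 ± 0.11). The ES call was lost without ES Rpl10a-IP replicate 2 (0.0610). It rose by 0.91 ± 0.13 in total RNA and 0.54 ± 0.11 in ribosome-bound RNA. Its change in enrichment was not called (-0.39 ± 0.18, adjusted p = 0.0699), but was without ELA input replicate 1 (-0.50, 0.0101) and with total reads as scaling (-0.48, 0.0255).

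By subfamily, the 11 Zbtb genes had 5 higher and 2 lower in total RNA and 6 higher and 2 lower in ribosome-bound RNA, with median log2 changes of 0.24 and 0.35. Over all genes 34.5% were higher and 35.8% lower in total RNA, and 41.6% and 41.9% in ribosome-bound RNA. The 61 Zfp genes had 33 higher and 10 lower in total RNA and 35 higher and 16 lower in ribosome-bound RNA, with medians of 0.42 and 0.54. The number of C2H2 fingers was counted by a C, 2 to 4 residues, a C, 12 residues, an H, 3 to 5 residues and an H in translated coding sequences, which found 1 or more in 74 of the 78 genes that had a sequence. In total RNA 19 of the 32 genes with 10 or more fingers rose and 5 fell, beside 23 and 9 of the 46 with fewer and the same all-gene shares. The filter bears on the first count, since 9 of the 32 passed in ELA only, beside 4 of the 46. Among genes at 50 or more in both stages, 12 of 21 with 10 or more fingers rose and 3 fell, beside 19 and 7 of 40 with fewer. Across the 78 genes the number of fingers had a Pearson correlation of 0.07 with the change in total RNA and 0.07 with the change in enrichment.

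Many zinc finger genes arose by tandem duplication, and 25 of the 80 lay within 1000000 bases of another, in 11 clusters. In ribosome-bound RNA every gene was called higher in 6 of the 11 clusters, none was called in 1, the calls were opposite in 1, and the other 3 held both called and uncalled genes. In total RNA every gene was called higher in 5, none was called in 2, and the calls were opposite in 1. Gene by gene, 56.2% of the group and 41.6% of all genes were called higher in ribosome-bound RNA, and 52.5% and 34.5% in total RNA. No share for clusters of other genes was computed. On chromosome 17, Zfp160, Zfp760 and Zfp942 all rose in ribosome-bound RNA, by 0.55 to 1.31, and all 3 passed the filter in ELA only, which favors such a rise. Other clusters called higher throughout also hold genes that passed in ELA only. In the second cluster of that chromosome Zfp811 rose by 2.01 ± 0.16 and Zfp871 by 1.11 ± 0.09, while the change of Zfp955a was -0.18 ± 0.11 and was not called. On chromosome 4 total RNA rose for Zmym4, in a call lost in the settings given above, and fell for Zmym1 and Zmym6. Ribosome-bound RNA there rose for Zmym4 and Zmym6 and fell for Zmym1 (-0.27). Without ES Rpl10a-IP replicate 1 or 2 or ELA Rpl10a-IP replicate 2, Zmym1 stood at -0.26, -0.26 and -0.22, and its call was lost. Reads were allowed to map to more than 1 place in the genome, so the counts of near-identical neighbors are uncertain.

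The change in enrichment was higher in longer transcripts. Over the 78 genes with a transcript, whose median length was 4078 nt against 3692 nt over 3119 genes of the table, its Pearson correlation with the log2 length was 0.38 (Spearman 0.41). The values over the 3119 genes were 0.48 and 0.44. Genes of 1 library share its depth and base composition and are no replicates. The change in ribosome-bound RNA correlated with length at 0.58 in the whole table and 0.15 in the zinc finger and BTB genes, and that in total RNA at 0.32 and -0.08, a difference between sets that was not tested. In ES, enrichment fell with the GC content of the transcript, with a Pearson correlation of -0.47 in the group and -0.40 in the table. After a correction of each library for length and GC with the replicate number as a block, 26 of the 78 genes rose in enrichment and 11 fell, beside 29.0% and 24.9% (53.9% in all) of the 3119 genes in the same fit, and 22 of these 37 were among the 32 calls given above. Zfp37, Zfp191, Zfp219, Zmym6, Zfp318 and Zmym4 remained called, while Zfp937 (adjusted p = 0.0619), Zfp2 (0.0693), Zfp207 (0.0528) and Zfp106 (0.0775) did not.

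**Figure D4:**
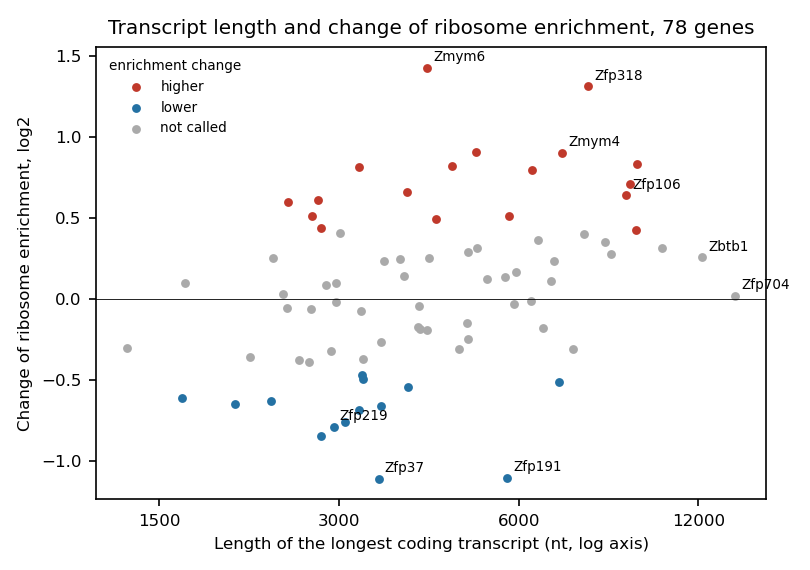
Change of ribosome enrichment from ES to ELA (log2, vertical axis) against the length of the longest coding transcript (nt, log axis) for the 78 zinc finger and BTB genes with a transcript, colored by call. The Pearson correlation with log2 length was 0.38, with Zmym6 and Zfp318 at the top and Zfp37 and Zfp191 at the bottom.

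The proteins these factors work with were listed too, and 12 of 24 cofactors were measured. In total RNA 6 rose and 3 fell, in ribosome-bound RNA 6 rose and 4 fell, and in the change of enrichment 3 rose and 4 fell. These are 9, 10 and 7 of the 12, beside 70.2%, 83.4% and 56.2% of all genes. Values of partners of KRAB factors are given singly, and a difference between them was not tested. Setdb1 had the largest rise in enrichment of the list at 1.22 (log2, limma adjusted p = 4.77e-08), with total RNA down by 0.89 on the log2 scale and ribosome-bound RNA up by 0.34. The heterochromatin protein gene Cbx1 had the largest fall, by 1.17 on the log2 scale (1.15e-07). The changes in enrichment of Trim28 (0.15, 0.419) and of the heterochromatin protein gene Cbx5 (0.03, 0.871) were not called. Trim28 fell in total RNA (-0.93, limma adjusted p = 2.41e-09) and ribosome-bound RNA (-0.77, 6.61e-15). Cbx5 rose in total RNA (0.27, 0.0289) and ribosome-bound RNA (0.32, 0.000374).

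C2H2 factors with other names gave a comparison outside the symbol rule. Of 56 listed, 21 were in the table. Total RNA rose in 11 and fell in 6, ribosome-bound RNA rose in 11 and fell in 7, and enrichment rose in 6 and fell in 6, so that 81.0%, 85.7% and 57.1% of the list were called, beside 70.2%, 83.4% and 56.2% of all genes. Their median log2 changes were 0.25 in total RNA and 0.30 in ribosome-bound RNA. The change in enrichment ran from -1.01 in Ctcf, the insulator protein with many fingers (adjusted p = 7.83e-07), to 0.82 in Zxdc, a coactivator of the major histocompatibility class II genes (0.000946).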

How the data were processed

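Reads were mapped by the authors to the mm10 mouse transcriptome with TopHat2, with up to 2 genomic hits and without repeats, and counted per gene with HTSeq. The strand used is not given in the sources used here. The deposited per-library values are this signal as the authors divided it by a DESeq2 size factor, a normalized count. All values (100%) were whole multiples of the worth of 1 read (within 0.001 reads), so reads could be read back. The table holds 0 per-sample columns of other samples and 26 summary columns of the authors (means, ratios, fold changes), which were not used. The authors kept genes with a mean input count of 50 or more in either stage and with close replicates. Keeping genes for close replicates can make adjusted p-values too small, and the size of this effect was not tested.

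TMM factors (trim 30% of log ratios and 5% of levels) were computed over the libraries of each fit, and printed counts are scaled over 8. Log2(normalized count + 1) was fitted with limma 3.58.1 (R 4.3.3, lmFit, eBayes with trend), 1 coefficient per group, two-sided, with Benjamini-Hochberg adjustment over 3160 genes and a threshold of 0.05. This scale understates changes of low genes. The fits of ES enrichment and of ribosome-bound RNA used 7 libraries, without ELA input replicate 1, and the other comparisons used 8. The count models named in the design were not run. Each input came from a lysate that also gave Rpl10a-IP RNA, so same-numbered input and Rpl10a-IP libraries of a stage may share a lysate, which the labels do not state. Their deviations from the group means correlated at 0.504 in ELA and 0.170 in ES. Nothing pairs the numbers across stages, where the correlations ran from -0.02 to 0.170. The replicate number was not a block in the reported fits and is tried as an alternative.

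Genes named in the text were the 5 largest calls each way per comparison, every measured gene of the role lists, and the extreme call of the cofactor and other-C2H2 lists. Zfp7, Zfp866, Zfp871, Zfp160, Zfp760, Zfp942, Trim28 and Cbx5 were named after their values were seen. The split into genes at 50 or more in both stages was added after seeing the data. Members and lists were chosen with earlier results of these data known. All 80 genes had RefSeq coordinates (GRCm38.p6). Length, GC and finger number came from GENCODE vM1 transcripts, matched for 78. Where a gene had several promoter entries, a match in any and the highest number of CG dinucleotides were taken. Promoters span 250 bases before to 50 after the start. Control immunoprecipitations were not analysed here.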

Additional observations from a re-analysis of the deposited data

Results flagged for a closer look

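In a test of the difference between the stages, ribosome enrichment differed between ES and ELA in 32 of the 80 zinc finger and BTB genes (40.0%, below the 56.2% of all genes) in the limma fit of 8 libraries. Among those with the largest changes or in the role lists, it rose in Zmym6 (1.43 on the log2 scale), Zfp318 (1.31), Zfp280b (0.90), Zmym4 (0.90), Zfp236 (0.83), Zfp106 (0.64) and Zscan10 (0.51). It fell in Zfx (-0.51), Zfp207 (-0.63), Zfp36l2 (-0.66), Zfp2 (-0.76), Zfp219 (-0.79), Zfp937 (-0.84), Zfp191 (-1.10) and Zfp37 (-1.11). Also called, among others not listed here, were Zfp866 (0.82), Zfp473 (0.71), Zbtb37 (0.66), Zfp7 (0.61), Zfp955a (-0.61) and Zfp459 (-0.68). The calls of Zfp207, Zfp2, Zfp937 and Zfp106 were lost with the replicate block and the correction for length and GC (adjusted p from 0.0528 to 0.0775), that of Zfx without ES input replicate 1 (0.0906), and that of Zscan10 without any 1 of 3 libraries (from 0.0505 to 0.145). All of these rest on ELA input libraries in which the median gene of the group had 19 and 55 reads, against 26 and 66 over all genes. With the replicate block and the correction for length and GC, 47.4% of 78 genes of the group and 53.9% of 3119 genes were called.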

How the results depend on the processing

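Of 1903 values recomputed for the named genes, 1811 kept their direction and side of the threshold, 51 lost their call, 35 gained one and 6 reversed. The 6 reversed under the replicate block with length and GC correction: Zfp704 in ELA enrichment (-0.50) and in its change (-0.66), Zfx in total RNA (-0.012) and ribosome-bound RNA (-0.64), Zfp281 in ribosome-bound RNA (-0.068) and Zfp106 there (-0.54). The number of called genes in ES enrichment was 13 with 8 libraries (24.1% of all genes) and 13 to 29 when 1 library was left out, with 23.2% to 42.2% of all genes called in the same fits. These ranges were 40 to 51 in ELA enrichment (65.9% to 74.9% of all genes), 52 to 66 in total RNA (60.1% to 72.4%), 57 to 65 in ribosome-bound RNA (75.9% to 83.8%) and 23 to 39 in the change of enrichment (45.3% to 61.3%). A library left alone in its group was assumed to vary like the other groups. Deposited size factors moved the median of all genes from -0.02 to -0.12 in total RNA and from -0.01 to -0.14 in ribosome-bound RNA. They were computed within each fraction, so they gave no enrichment within a stage, and with them the change in enrichment was called in 31 genes (54.9% of all genes). Pseudocounts of 0.1 and 10 and a mean of at least 100 normalized counts left all 5 counts as they were. The planned count models were not run.

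With the replicate number as a block, 28 genes were called in ES enrichment, 52 in ELA enrichment, 60 in total RNA, 64 in ribosome-bound RNA and 35 in the change of enrichment. Of all genes 41.0%, 76.4%, 72.8%, 83.8% and 59.9% were called in these fits. Among the named genes the block alone changed 4 calls, all gained: Zfp217 (0.25, adjusted p = 0.0323) and Zfp423 (-0.33, 0.0326) in ELA enrichment, and Zfp143 in total RNA (0.0285) and in the change of enrichment (0.0292). Counts of ELA input limit every comparison that uses it.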
